A study of Homo sapiens with 15 samples.

Results

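Gene expression was compared between sorted cancer stem cells (CSCs) and the remaining cells (non-CSCs) of the triple negative breast cancer cell lines SUM149 (SUM149PT) and HCC1937, to find genes that changed in the same direction in both lines. Of the 15 RNA sequencing libraries of the study, 12 were used, with 3 CSC and 3 non-CSC libraries from each line, and the unsorted libraries of a further line were left out. A gene was tested when its mean over the 12 libraries was at least 1 FPKM (reads scaled to transcript length and library size), which held for 12295 of the 33158 genes in the deposited table. Its main effect was the difference between CSCs and non-CSCs on log2(FPKM + 0.1) with the cell line as a factor, tested with limma, and a call needed an adjusted p of at most 0.05 and a difference of at least 1 in either direction. A called gene counted as changed the same way in both lines when the difference within each line had the sign of the main effect and an adjusted p of at most 0.05 by limma. The fit of the main effect leaves the line difference of a gene in its residual. Standard errors and p values of main effects thus carry that difference as well as the spread between libraries. FRAT1, with a mean of 1.001 FPKM, stood nearest to the minimum among the tested genes. CCDC15, with 0.9997 FPKM, was the nearest gene left out.

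Both lines are established, untreated breast cancer lines with a mutated BRCA1 gene. In the study's methods, CSCs are the cells sorted by flow cytometry as CD44+ and CD24- or low, and non-CSCs are the remaining cells of the same line. The stem cell state is thus defined by a pair of surface proteins and not by growth or transplantation. Nothing in the labels states that the 3 libraries of a group came from separate cultures or sorts, so the spread between them may be technical. Summed FPKM averaged 302983 ± 12930 in the CSCs of SUM149 (SD, n = 3) and 312177 ± 10637 in its non-CSCs (SD, n = 3). In HCC1937 these sums averaged 321277 ± 20893 and 350381 ± 18426 (SD, n = 3 each). The number of reads is unknown, because the values are FPKM and show no whole-read steps. Across genes, the correlation of log2 values lay between 0.97 and 0.98 for libraries of 1 group and between 0.78 and 0.94 for the fractions of 1 line, where genes are not independent replicates.

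Breast CSCs are thought to sustain a tumor through self-renewal and to resist treatment, and low CD24 with high CD44 is the surface pattern most used to sort them. CD24 is a small glycosylated protein anchored in the membrane of many epithelial cells, and CD44 is a receptor for hyaluronan. Breast cancer cells with this pattern often carry features of the epithelial to mesenchymal transition, a program in which cell junctions and keratins give way to vimentin, N-cadherin and matrix proteins under transcription factors such as ZEB1.

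CD24 RNA followed the gate in both lines. The CSC libraries of SUM149 held 7.97, 7.64 and 7.61 FPKM of CD24, and the non-CSC libraries 147, 137 and 134 FPKM. In HCC1937, CD24 stood at 23.6, 22.5 and 23.9 FPKM in CSCs and 167, 141 and 142 FPKM in non-CSCs. Every CSC library lay below every non-CSC library of its line. The main effect was -3.41 ± 0.23 (SE), with -4.15 in SUM149 and -2.67 in HCC1937 (adjusted p = 1.55e-06 for the main effect, limma). An exact permutation test with the fraction labels permuted within each line, two-sided over 400 arrangements, gave p = 0.005, the smallest it can give. The cells were sorted on CD24 and CD44 protein, so these tests check the fraction labels and are not independent evidence on the CSC state. Reads of CD24 may also come from its near-identical copy CD24P4. CD44 RNA differed far less. Its level was 83.4, 82.9 and 86.8 FPKM in the CSCs of SUM149 and 67.0, 65.3 and 61.4 FPKM in the non-CSCs. In HCC1937 it was 113, 100.4 and 106 FPKM in CSCs and 96.0, 95.1 and 102 FPKM in non-CSCs. The fractions stood apart for CD44 in SUM149 and overlapped in HCC1937. Its main effect of 0.25 ± 0.07 (SE) had an adjusted p of 0.0109 by limma and an exact permutation p of 0.01, but fell short of the limit of 1, and the within-line difference in HCC1937 had an adjusted p of 0.159 by limma.

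Most epithelial markers checked were present in each line and fraction. The exception was the keratin KRT14, which was low in SUM149, with means of 0.822 FPKM in CSCs and 1.28 FPKM in non-CSCs. Its means in HCC1937 were 109 and 170 FPKM. The keratins KRT8 and KRT18 ranged from 34.6 to 592 FPKM and from 39.5 to 669.8 FPKM over the 12 libraries, and the adhesion protein EPCAM from 2.03 to 93.1 FPKM. Of the genes that define triple negative cancers, the progesterone receptor gene PGR was listed at 0 in 11 of 12 libraries, and the estrogen receptor gene ESR1 ranged from 0.0506 to 1.86 FPKM. ERBB2, which encodes HER2, was present at 3.39 to 18.3 FPKM and was lower in CSCs of both lines without reaching the limit of 1 (main effect -0.82 ± 0.06, SE). Its fractions did not overlap in either line.

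Across the tested genes, 1776 were called for the main effect (14.4%), of which 546 were higher in CSCs (4.44%) and 1230 were lower (10.0%). Those that changed the same way in both lines numbered 1208, with 366 over-expressed in CSCs (2.98% of the tested genes) and 842 under-expressed (6.85%). They made up 68.0% of the main effect calls. Of the other 568 calls, 530 reached an adjusted p of 0.05 by limma in SUM149 only, 22 in HCC1937 only, and 13 in both lines but in opposite directions, and the rest in neither. At that limit alone, 77.7% of the tested genes differed within SUM149 and 37.2% within HCC1937, and 9.20% differed in opposite directions.

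The shared genes moved further in SUM149 than in HCC1937. The 366 higher genes had a median difference of 1.90 in SUM149 and 0.99 in HCC1937, and the 842 lower genes -2.59 and -1.14. Over all tested genes the medians were -0.04 and -0.02, and -0.04 for the main effect. The difference was larger in SUM149 for 1068 shared genes and in HCC1937 for 140. The line difference itself reached an adjusted p of 0.05 by limma for 1005 of the shared genes, of which 933 moved further in SUM149, against 67.6% of all tested genes. Fractions stood apart in both lines, with no CSC library inside the range of the non-CSC libraries, for 360 of the higher and 822 of the lower genes, and for 26.9% of all tested genes. A difference of at least 1 in each line was met by 161 higher and 458 lower genes, and one of at least 2 by 14 and 138. The scatter of the within-line differences shows both sets beside the other genes.

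**Figure D1:**
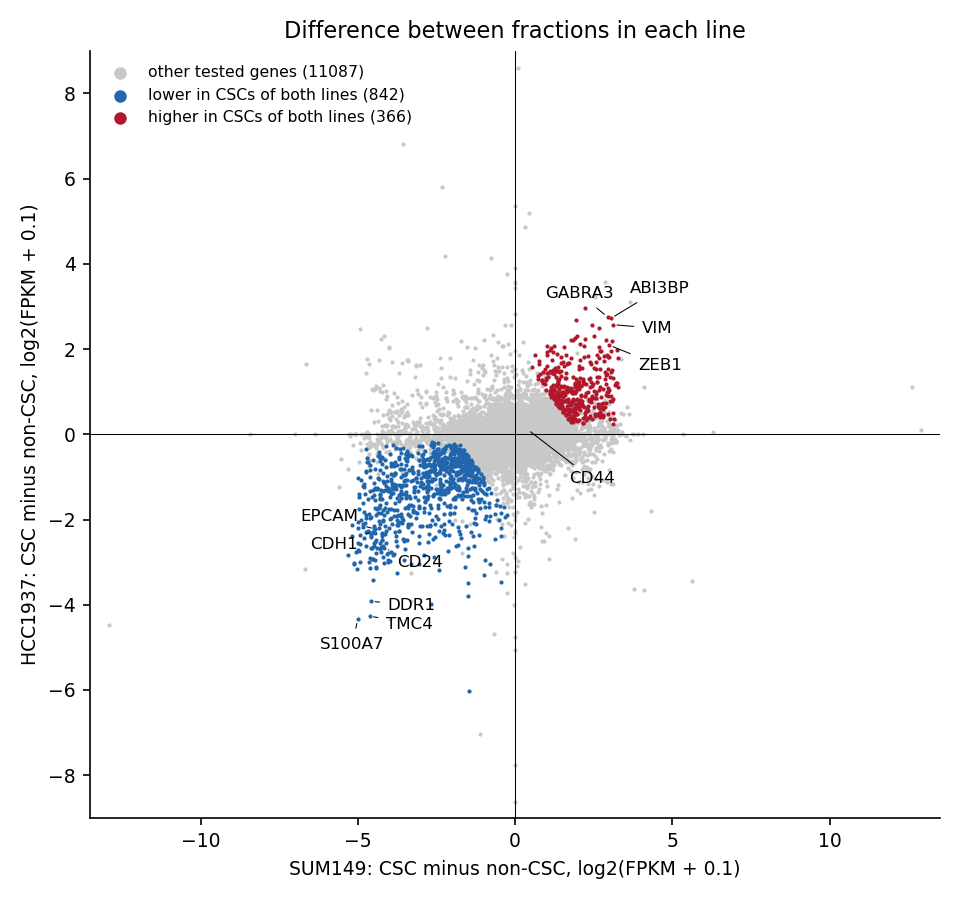
Difference between CSCs and non-CSCs in SUM149 (horizontal axis) and in HCC1937 (vertical axis), both on log2(FPKM + 0.1), for each of the 12295 tested genes. The 366 genes higher in CSCs of both lines lie in the upper right and the 842 lower genes in the lower left, where S100A7 reaches -5.00 and -4.34.

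A pair of limits applies to these counts. Among the shared genes, 181 stood under 1 FPKM in both fractions of 1 line, 61 in SUM149 and 120 in HCC1937, and 40 were listed at 0 in at least 1 library, where a 0 may be a failed estimate. The offset of 0.1 understates the differences of such low genes, and the minimum on the mean lets a low gene pass through the fraction where it is high. The share of higher genes among the main effect calls was 30.7% and became 41.9% after quantile normalization (742 higher and 1029 lower), and among the shared genes it was 30.3% and became 40.4% (495 and 729). Quantile normalization moved the median of all genes in SUM149 to 0.10, and rescaling to a common total moved that in HCC1937 to 0.10, while the median of the main effect lay between -0.04 and 0.08 under each scaling. In bulk RNA, fewer cells of a type and less RNA per cell cannot be told apart.

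The genes that rose most in both lines have varied functions. These and the genes that fell most were picked only among shared genes whose fractions did not overlap in either line. The lack of overlap is thus no separate result for them. VIM encodes vimentin, the intermediate filament of mesenchymal cells. It stood at 2008, 2187 and 2075 FPKM in the CSCs of SUM149 and at 226, 222 and 284 FPKM in the non-CSCs. The corresponding levels in HCC1937 were 1012, 882 and 857 FPKM and 121, 187 and 160.2 FPKM. All 6 CSC libraries exceeded the non-CSC libraries of their line, and the main effect was 2.84 ± 0.14 (SE; adjusted p = 1.53e-07, limma). ABI3BP, a protein of the extracellular matrix, rose from 1.22 to 10.7 FPKM in SUM149 and from 5.20 to 34.2 FPKM in HCC1937 (main effect 2.89 ± 0.13, SE). SRGN, the proteoglycan serglycin, had nearly the same levels in both lines, rising from 6.05 to 37.8 FPKM in SUM149 and from 6.08 to 34.8 FPKM in HCC1937 (main effect 2.59 ± 0.14, SE). GABRA3, a subunit of the GABA-A receptor, was low in non-CSCs and rose from 0.241 to 2.42 FPKM in SUM149 and from 0.27 to 2.39 FPKM in HCC1937 (main effect 2.85 ± 0.16, SE).

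Further genes of this group moved by nearly equal amounts in the lines. DIO2, a deiodinase that activates thyroid hormone, held 1.37, 1.41 and 1.42 FPKM in the CSCs of SUM149 against 0.26, 0.219 and 0.185 FPKM in the non-CSCs. In HCC1937 it held 8.35, 9.18 and 8.84 FPKM against 1.69, 1.76 and 1.95 FPKM. The fractions of DIO2 stood apart in both lines although its level in HCC1937 was higher throughout, and the differences were 2.23 in SUM149 and 2.23 in HCC1937 (adjusted p of the main effect 1.28e-08, limma). DAB2, an adaptor of clathrin-mediated endocytosis, differed by 2.07 in SUM149 and 2.11 in HCC1937, and MSRB3, which reduces oxidized methionine, by 2.19 in SUM149 and 2.07 in HCC1937. ADAMTS2, the protease that trims the amino end of procollagens, rose from 0.195 to 1.56 FPKM in SUM149 and from 0.429 to 2.40 FPKM in HCC1937. FAM196B rose by 2.45 in SUM149 and 2.56 in HCC1937. For none of these did the line difference reach an adjusted p of 0.05 by limma.

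Some members of the group rose more in SUM149. CREB3L1, a membrane-bound transcription factor that supports collagen secretion, rose from 3.37 to 25.2 FPKM in SUM149 and from 1.12 to 5.49 FPKM in HCC1937. FOXF1, a forkhead factor of the embryonic mesoderm, differed by 3.24 in SUM149 and 1.98 in HCC1937, and the semaphorin SEMA6D by 2.66 in SUM149 and 2.04 in HCC1937. For GNG11, a gamma subunit of heterotrimeric G proteins, the differences were 2.23 in SUM149 and 2.96 in HCC1937 with no line difference at an adjusted p of 0.05 by limma, with a standard error of 0.38 for its main effect, and it was listed at 0 in 1 non-CSC library of HCC1937. With an offset of 0.01 GNG11 was no longer counted among the shared genes. Values of these genes in single libraries appear in the heat map of the largest differences.

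Under-expressed genes reached larger differences than over-expressed ones. S100A7, a calcium-binding protein of inflamed and squamous epithelium also called psoriasin, had 4.51, 7.65 and 8.65 FPKM in the CSCs of SUM149 and 254, 196 and 207 FPKM in the non-CSCs. Its levels in HCC1937 were 2.67, 3.582 and 2.63 FPKM and 70.4, 61.2 and 53.8 FPKM. No CSC library came near a non-CSC library of its line, and the main effect was -4.67 ± 0.19 (SE; adjusted p = 5.90e-08, limma), although near-identical copies of S100A7 leave its level uncertain. TMC4, a transmembrane channel-like protein, was abundant in non-CSCs and fell from 729 to 31.3 FPKM in SUM149 and from 294 to 17.0 FPKM in HCC1937 (main effect -4.45 ± 0.27, SE). DDR1, a receptor kinase for collagen, fell from 258 to 10.7 FPKM in SUM149 and from 3.15 to 0.125 FPKM in HCC1937, where its level was low and 1 CSC library was listed at 0.

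PRSS22, a serine protease of epithelial cells, differed by -4.53 in SUM149 and -3.42 in HCC1937, and the cornified envelope precursor SPRR2A by -5.03 in SUM149 and -3.17 in HCC1937. FUT3, the fucosyltransferase that completes Lewis antigens, differed by -3.30 in SUM149 and -3.05 in HCC1937. Its main effect had the smallest standard error of the group (0.11), which also reflects how alike the lines were. Within lines the standard error was 0.13 for FUT3 and 0.10 for CCDC64B. The metalloreductase STEAP4 fell from 134 to 3.77 FPKM in SUM149 and from 3.98 to 0.421 FPKM in HCC1937, and the aldehyde dehydrogenase ALDH3B2 from 34.1 to 0.933 FPKM in SUM149 and from 1.48 to 0.0894 FPKM in HCC1937. Transport proteins of this group include SLC6A14, an amino acid carrier, with differences of -4.43 in SUM149 and -3.12 in HCC1937, and ATP6V1C2, a subunit of the proton pump of acidic vesicles, with -3.05 in SUM149 and -3.04 in HCC1937. EPN3, an epsin of endocytosis, differed by -3.76 in SUM149 and -3.26 in HCC1937, and CCDC64B by -4.42 in SUM149 and -3.13 in HCC1937. The transcript LOC101929863 was listed at 0 in all 3 CSC libraries of SUM149 against a mean of 1.87 FPKM in its non-CSCs.

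**Figure D2:**
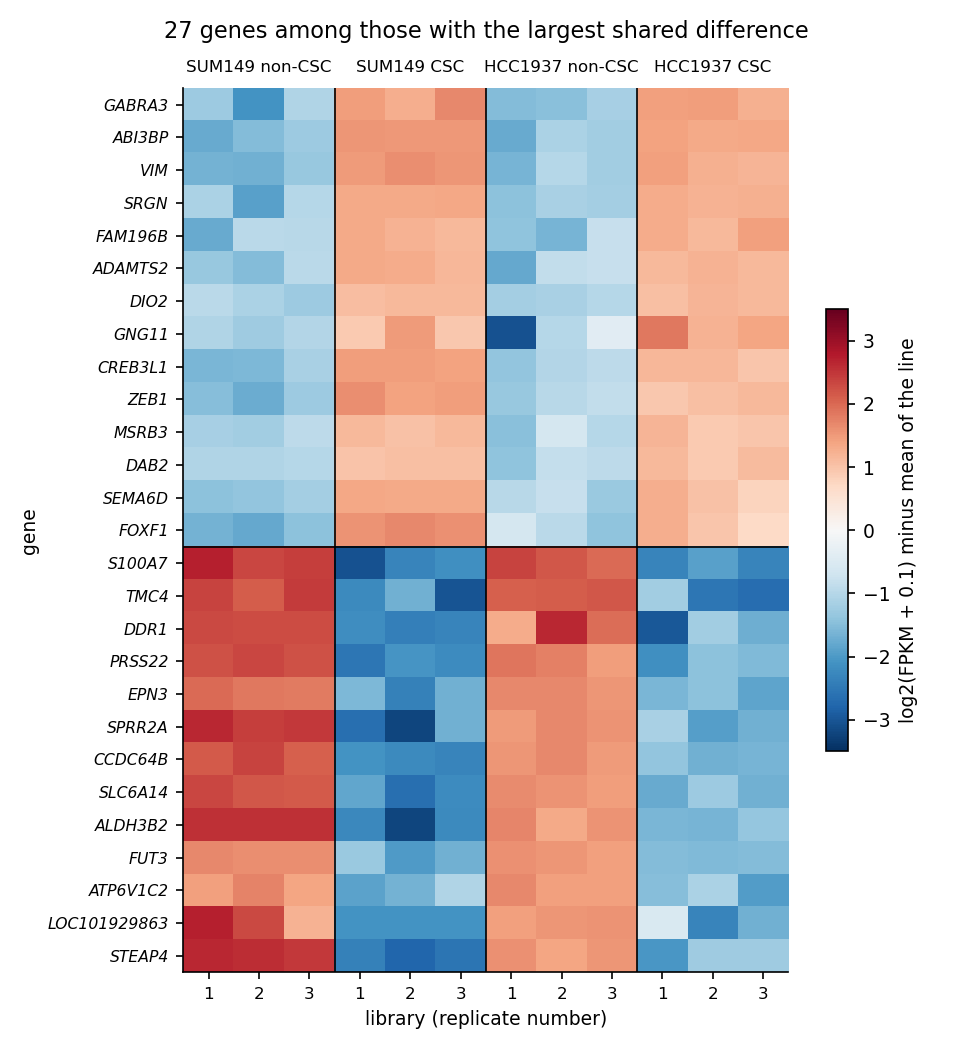
Heat map of 14 higher and 13 lower genes among those with the largest difference shared by both lines, with genes down the side and libraries across, colored by log2(FPKM + 0.1) minus the mean of the gene in that line. The 3 CSC libraries of each line lie above its non-CSC libraries for the upper 14 genes and below them for the lower 13, from GABRA3 and VIM to STEAP4. The choice of these genes required this.

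The epithelial state is governed by transcription factors that repress epithelial genes and by others that maintain them. Counts in this and later lists stand beside shares of 2.98% higher and 6.85% lower among all tested genes. Of 11 tested repressors of epithelial genes, 4 rose, 0 fell and 7 did not pass, while 2 of the latter differed in opposite directions, and the median main effect of the list was 0.76. ZEB1, the zinc finger repressor of CDH1, had 7.39, 6.43 and 6.63 FPKM in the CSCs of SUM149 and 0.778, 0.633 and 0.916 FPKM in the non-CSCs. In HCC1937 its level was 6.77, 7.22 and 7.67 FPKM and 1.32, 1.71 and 1.87 FPKM. The CSC fractions of the lines reached similar levels of ZEB1, and both stood clear of the non-CSCs (main effect 2.54 ± 0.17, SE; adjusted p = 1.44e-06, limma). Its paralog ZEB2 rose from 1.03 to 4.36 FPKM in SUM149 and from 0.56 to 3.10 FPKM in HCC1937 (main effect 2.14 ± 0.11, SE). SNAI2, which encodes SLUG, differed by 1.92 in SUM149 and 0.37 in HCC1937, and the forkhead factor FOXC2 by 3.28 in SUM149 and 1.12 in HCC1937. Neither SNAI2 nor FOXC2 kept its place among the shared genes when some single libraries of HCC1937 were left out or when each line was fitted alone.

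Of 18 tested regulators of epithelial identity, 13 fell in CSCs of both lines and 0 rose, with a median of -1.83. OVOL1, a zinc finger factor that opposes ZEB1, stood at 0.832, 0.856 and 1.29 FPKM in the CSCs of SUM149 and at 23.5, 22.9 and 23.9 FPKM in the non-CSCs. For HCC1937 the levels were 1.01, 1.13 and 1.19 FPKM and 9.84, 9.55 and 8.46 FPKM. All 6 CSC libraries lay below the non-CSC libraries of both lines (main effect -3.70 ± 0.25, SE; adjusted p = 1.44e-06, limma). GRHL2 and GRHL1, grainyhead factors that drive junction genes, differed by -4.24 and -2.75 in SUM149 and by -2.47 and -2.35 in HCC1937. ELF3, an epithelial ETS factor, fell from 191 to 32.8 FPKM in SUM149 and from 87.1 to 16.4 FPKM in HCC1937, and its main effect of -2.47 ± 0.07 (SE) had the smallest adjusted p of all tested genes (9.59e-09, limma).

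ZEB and SNAI factors are known to bind DNA with the letters CACCTG, so these letters were searched for, with their reverse complement CAGGTG and hence on both strands, in the 250 bases before the start given for each gene in RefSeq (build GRCh38.p14), which for some genes is the start of a shorter transcript inside the gene. Of all 35116 promoters in the table, 17.5% held the motif. It was found in 186 of 570 matched promoters of the lower genes, in 31 of 275 of the higher genes and in 1481 of 9415 of the tested genes. A comparison of these shares is void, because only 67.7% of the lower, 75.1% of the higher and 76.6% of the tested genes had an entry. Stretches of FA2H, with 3 motifs, S100A7, with 2, and the ephrin receptor gene EPHA1, with 1, are shown as examples of lower genes that hold it, chosen after the sequences were seen, while other lower genes hold more, as many or none. They are printed from 5′ to 3′ along the gene's strand, with the motif in capitals.
FA2H: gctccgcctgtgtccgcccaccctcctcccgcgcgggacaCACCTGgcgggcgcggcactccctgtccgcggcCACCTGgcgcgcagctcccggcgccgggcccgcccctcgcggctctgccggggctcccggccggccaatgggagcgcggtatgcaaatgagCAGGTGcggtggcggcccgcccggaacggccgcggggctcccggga
S100A7: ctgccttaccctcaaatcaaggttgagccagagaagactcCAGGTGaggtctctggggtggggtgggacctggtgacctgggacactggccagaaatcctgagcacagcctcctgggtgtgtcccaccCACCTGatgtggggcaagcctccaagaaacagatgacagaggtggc
EPHA1: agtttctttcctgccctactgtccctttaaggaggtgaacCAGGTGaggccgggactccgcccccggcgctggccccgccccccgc

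The stretch of FA2H lies at chr16:74774825-74775034 on the minus strand and its motifs begin 174, 141 and 50 bases before the start. S100A7 is shown at chr1:153460720-153460893 on the minus strand, with motifs 202 and 114 bases before the start, and EPHA1 at chr7:143408891-143408976 on the minus strand, with its motif 80 bases before the start. A match describes these letters and is not a binding site. EPHA1 itself fell from 5.28 to 0.194 FPKM in SUM149 and from 6.87 to 1.05 FPKM in HCC1937 (main effect -3.41 ± 0.26, SE).

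Junctions bind epithelial cells to each other. Of 31 tested genes for adherens junctions, tight junctions and desmosomes, 24 fell in CSCs of both lines, 0 rose and 7 did not pass. Their median difference was -3.52 in SUM149 and -1.45 in HCC1937. CDH1, which encodes E-cadherin, held 3.37, 3.04 and 3.56 FPKM in the CSCs of SUM149 and 80.3, 80.9 and 73.7 FPKM in the non-CSCs. In HCC1937 it held 15.4, 17.4 and 17.8 FPKM in CSCs and 83.1, 79.3 and 85.9 FPKM in non-CSCs. The non-CSCs of both lines had much the same level, and the CSCs of SUM149 stood lowest (main effect -3.40 ± 0.34, SE; adjusted p = 2.59e-05, limma). EPCAM fell from 55.4 to 2.49 FPKM in SUM149 and from 83.6 to 17.7 FPKM in HCC1937. The tight junction scaffold TJP3 differed by -3.52 in SUM149 and -2.50 in HCC1937, and DSG3, a desmosomal cadherin, by -4.59 in SUM149 and -2.36 in HCC1937.

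Keratins form the intermediate filaments of epithelial cells. Of 5 tested keratins of simple epithelium 3 fell, and of 11 keratins of basal and stratified epithelium 9 fell, with none of either list higher in both lines and medians of -1.88 and -2.75. KRT19 was far more abundant in SUM149, where CSCs held 42.4, 41.1 and 42.3 FPKM and non-CSCs 1151, 1107 and 1123 FPKM. HCC1937 had 0.868, 1.06 and 0.723 FPKM in CSCs and 4.47, 5.73 and 3.92 FPKM in non-CSCs. The fractions stood apart in each line at these unlike levels (main effect -3.52 ± 0.39, SE; adjusted p = 4.59e-05, limma). KRT8 and KRT18, the filament pair of simple epithelium, differed by -2.35 and -2.39 in SUM149 and by -1.40 and -1.52 in HCC1937. KRT16, KRT6A, KRT6B and KRT6C, keratins of activated keratinocytes, had main effects of -2.75, -3.49, -3.62 and -2.98, although the near-identical KRT6 genes may share reads. KRT5 of basal cells differed by -4.62 in SUM149 and -1.33 in HCC1937. KRT14, its usual partner, did not pass the limit of 1, with a main effect of -0.61 ± 0.11 (SE).

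Epithelial laminin and hemidesmosomes anchor basal cells to the basement membrane. Of 8 tested subunits 2 fell and 1 rose in both lines, and the median of -0.03 turned to 0.05, 0.15 and 0.06 with upper quartile, quantile and common-total scaling. Within the lines the medians were 0.70 in SUM149 and -0.37 in HCC1937. LAMA3, the alpha chain, fell from 40.9 to 8.48 FPKM in SUM149 and from 30.8 to 8.35 FPKM in HCC1937 (main effect -2.07 ± 0.09, SE). LAMB3, the beta chain, had a main effect of -1.08, which came to -0.999 and -0.993 and hence missed the limit with upper quartile and common-total scaling. DST, a cytoskeletal linker, rose by a main effect of 1.20.

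Products of secretory epithelium were mostly too low to test. Of 36 genes on this list 14 reached the minimum, and 13 of these fell in CSCs of both lines, with a median of -3.24. A low gene such as AGR2, with a mean of 1.15 FPKM, passed the minimum only through its level in non-CSCs. The count and median of this list thus depend in part on the minimum. WFDC2, a secreted protease inhibitor also known as HE4, fell from 5492 to 179 FPKM in SUM149 and from 43.0 to 7.21 FPKM in HCC1937 (main effect -3.76 ± 0.37, SE). FOLR1, a folate receptor, fell from 4.90 to 0.2 FPKM in SUM149 and from 1.96 to 0.164 FPKM in HCC1937, and AGR2, a protein disulfide isomerase of mucin-producing cells, from 2.34 to 0.0726 FPKM in SUM149 and from 1.96 to 0.214 FPKM in HCC1937. The membrane mucin MUC4 differed by -4.22 in SUM149 and -2.38 in HCC1937.

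Membrane serine proteases and kallikreins cut proteins at the surface of epithelial cells and outside them. Of 20 such proteases and inhibitors on the list 12 reached the minimum, and these fell in CSCs of both lines, with medians of -2.21 in SUM149 and -2.66 in HCC1937, and 11 did so with upper quartile scaling and 10 after quantile normalization. A further tested kallikrein gene, KLK9, is not on the list and did not fall in SUM149, where it stood under 0.1 FPKM. PRSS8, the membrane protease prostasin, had 4.60, 4.22 and 4.27 FPKM in the CSCs of SUM149 against 87.1, 90.4 and 83.0 FPKM in the non-CSCs. In HCC1937 the values were 9.84, 12.4 and 10.6 FPKM and 75.1, 74.7 and 65.2 FPKM. Prostasin was thus low in each CSC library, with no overlap in either line (main effect -3.49 ± 0.25, SE; adjusted p = 2.21e-06, limma). ST14, which encodes matriptase, fell from 44.3 to 2.00 FPKM in SUM149 and from 52.6 to 8.26 FPKM in HCC1937. Its inhibitor SPINT1 fell from 306 to 13.7 FPKM in SUM149 and from 136 to 30.3 FPKM in HCC1937.

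Squamous differentiation builds the outer layer of stratified epithelium. Of 17 tested genes of the cornified envelope and late squamous program, 13 fell in both lines and 0 rose, with medians of -2.76 in SUM149 and -2.53 in HCC1937. CSTA, the protease inhibitor cystatin A, fell by nearly the same amount in each line, from 52.7 to 7.05 FPKM in SUM149 and from 15.3 to 2.09 FPKM in HCC1937 (main effect -2.85 ± 0.12, SE). PADI2, which converts arginine to citrulline in proteins, differed by -4.56 in SUM149 and -2.92 in HCC1937. SPRR2E differed by -5.30 in SUM149 and -2.83 in HCC1937 but is nearly identical to SPRR2A. Of 16 tested enzymes that build terminal and mucin-type glycans 6 fell in both lines, against 6.85% of all tested genes. None rose, and the list median was -0.95. GALNT3, which starts mucin-type chains, fell from 31.5 to 1.52 FPKM in SUM149 and from 21.6 to 3.60 FPKM in HCC1937. B3GNT3, which extends them, had a main effect of -2.92, and the sialyltransferase ST6GAL1 one of -1.79.

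**Figure D3:**
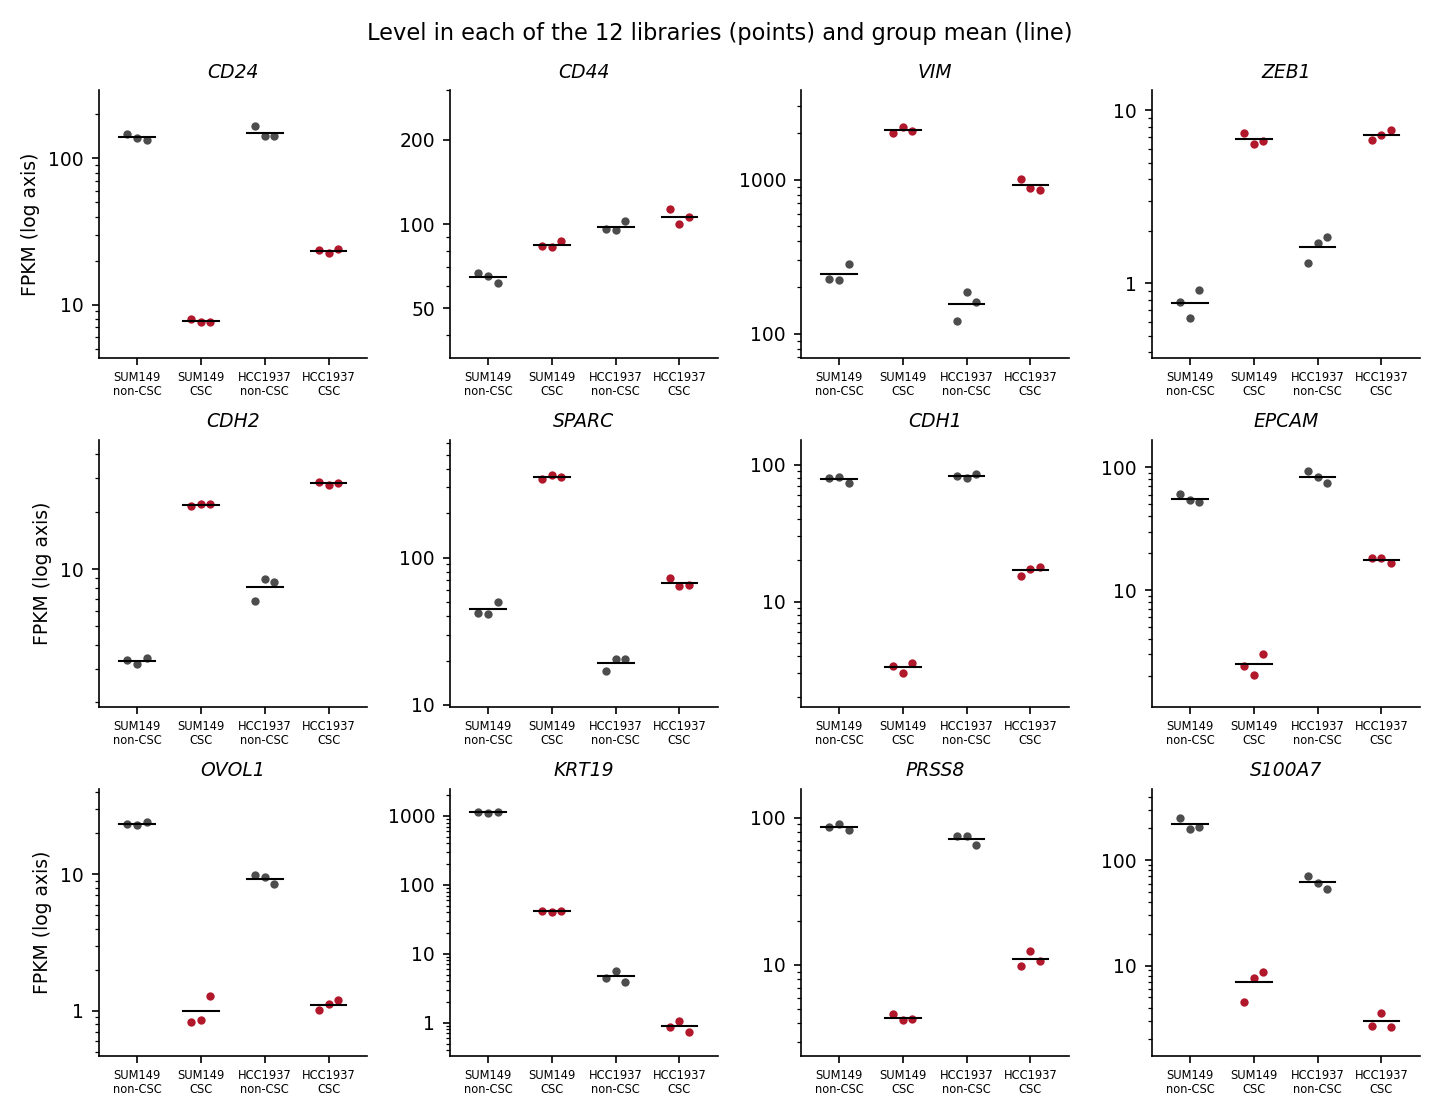
Level of 12 genes in each library (points, FPKM on a log axis) by line and fraction, with the group mean as a line. CD24, CDH1, EPCAM, OVOL1, KRT19, PRSS8 and S100A7 are lower and VIM, ZEB1, CDH2 and SPARC higher in all CSC libraries of each line, while CD44 lies between 61.4 and 113 FPKM and overlaps in HCC1937.

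Extracellular matrix genes were the list with the most over-expressed members by number, while the share was larger among fibroblast markers (4 of 7). Of 34 tested, 17 rose in CSCs of both lines, 0 fell, and 10 differed in opposite directions, with medians of 1.53 in SUM149 and 0.81 in HCC1937. SPARC, a collagen-binding matricellular protein, stood at 342, 362 and 350.1 FPKM in the CSCs of SUM149 and at 42.3, 41.3 and 49.8 FPKM in its non-CSCs. HCC1937 had 73.1, 63.8 and 65.2 FPKM and 17.0, 20.5 and 20.4 FPKM. CSC libraries stood above non-CSC libraries in both lines, and SUM149 held more SPARC in each fraction (main effect 2.39 ± 0.19, SE; adjusted p = 5.37e-06, limma). COL4A1, a chain of basement membrane collagen, differed by nearly equal amounts of 1.73 in SUM149 and 1.68 in HCC1937. The secreted glycoprotein DKK3 rose from 4.08 to 35.4 FPKM in SUM149 and from 0.119 to 0.91 FPKM in HCC1937. Tenascin C, encoded by TNC, rose from 16.3 to 105 FPKM in SUM149 and from 17.9 to 45.0 FPKM in HCC1937.

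Among matrix proteases and the plasminogen system, 7 of 20 tested genes rose and 1 fell, with a median of 0.35. With each other scaling 8 rose, and after quantile normalization 0 fell. ADAM12, a membrane metalloprotease, rose from 0.663 to 2.62 FPKM in SUM149 and from 0.869 to 4.29 FPKM in HCC1937. The collagenase MMP1 rose from 2.06 to 9.66 FPKM in SUM149 and from 0.679 to 2.64 FPKM in HCC1937. SERPINE2, an inhibitor of thrombin and plasminogen activators, differed by 1.63 in SUM149 and 1.86 in HCC1937, and PLAT, the tissue plasminogen activator, by 1.37 in SUM149 and 1.23 in HCC1937. In no case of these 4 did the line difference reach an adjusted p of 0.05 by limma.

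Mesenchymal adhesion genes had 7 of 18 tested members higher and 0 lower in both lines, with a median of 0.66. CDH2, which encodes N-cadherin, had 21.4, 21.9 and 22.0 FPKM in the CSCs of SUM149 and 3.33, 3.18 and 3.42 FPKM in the non-CSCs. Its values in HCC1937 were 28.5, 27.7 and 28.2 FPKM and 6.83, 8.87 and 8.53 FPKM. N-cadherin RNA was thus highest in the CSCs of HCC1937 and lowest in the non-CSCs of SUM149 (main effect 2.24 ± 0.15, SE; adjusted p = 1.45e-06, limma). CDH13, a cadherin without a cytoplasmic tail, differed by 2.61 in SUM149 and 1.86 in HCC1937, and the integrin subunit ITGB3 by 3.05 in SUM149 and 1.96 in HCC1937. NT5E, the surface enzyme CD73 that makes adenosine, rose from 2.75 to 17.0 FPKM in SUM149 and from 10.8 to 31.6 FPKM in HCC1937. Of 16 tested cytoskeletal genes of mesenchymal cells 2 rose and 0 fell, against 2.98% and 6.85% of all tested genes. The list median was 0.25. The higher genes were VIM and MYLK, the myosin light chain kinase, whose differences were 1.66 in SUM149 and 1.64 in HCC1937.

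Genes of growth factor pathways divided. For TGF-beta and activin signalling, 4 of 19 tested genes rose and 1 fell, against 2.98% and 6.85% of all tested genes. The list median was 0.25. TGFBR2, the type II receptor, rose from 8.81 to 40.4 FPKM in SUM149 and from 8.05 to 18.5 FPKM in HCC1937 (main effect 1.69 ± 0.16, SE). The co-receptor TGFBR3 differed by 2.18 in SUM149 and 0.63 in HCC1937, and with an offset of 1 its main effect of 1.41 came to 0.84 and that of TGFB1 to 0.98, both under the limit. TGFB1, the ligand, had a main effect of 1.01, near enough to the limit that it was missed when any of 4 HCC1937 libraries was left out. INHBA, the activin A subunit, fell from 27.6 to 5.28 FPKM in SUM149 and from 7.93 to 4.50 FPKM in HCC1937. Of 14 BMP and ID genes 1 rose and 2 fell, with a median of 0.14. The ligand BMP4 differed by -3.57 in SUM149 and -1.39 in HCC1937, and SMAD6, an inhibitor of BMP signals, by 1.38 in SUM149 and 1.29 in HCC1937, though its main effect came to 0.85 with an offset of 1.

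Wnt genes showed 3 higher and 2 lower of 22 tested, against 2.98% and 6.85% of all tested genes. The list had a median of 0.15 and 7 genes with opposite directions. The ligands WNT10A and WNT6 fell, with main effects of -2.79 and -2.55, while the ligand WNT5B rose from 0.494 to 1.50 FPKM in SUM149 and from 3.45 to 11.2 FPKM in HCC1937. Of 12 Notch genes 2 fell and 0 rose, with a median of 0.03, or 0.18 in SUM149 and -0.32 in HCC1937. The receptor NOTCH3 differed by -1.88 in SUM149 and -0.59 in HCC1937, and NRARP, a feedback inhibitor and target of Notch, by -2.79 in SUM149 and -1.09 in HCC1937. Targets and effectors of YAP and TAZ had 4 of 19 higher, 0 lower and a median of 0.28. They were NT5E, the GTPase-activating protein DLC1, the receptor kinase AXL and CRIM1, a binder of BMPs, and AXL rose from 8.25 to 34.0 FPKM in SUM149 and from 31.0 to 68.6 FPKM in HCC1937. DLC1 and CRIM1 had main effects of 2.39 and 1.51.

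Receptor tyrosine kinases and their ligands split evenly, with 6 of 26 tested genes higher, 6 lower and 6 with opposite directions. The median was 0.43, with 0.80 in SUM149 and -0.15 in HCC1937. EREG, the EGF receptor ligand epiregulin, rose from 9.09 to 40.2 FPKM in SUM149 and from 21.8 to 64.0 FPKM in HCC1937. Receptors of epithelial cells were among the lower genes, with main effects of -2.98 for the ephrin receptor EPHB3 and -4.25 for DDR1. In the IL6 and STAT3 list, 4 of 16 tested genes rose and 2 fell, with a median of 0.17. The higher genes were the cytokine IL6, its receptor chains IL6R and IL6ST, and LIFR, the receptor of LIF. IL6ST, the signalling chain gp130, rose from 18.8 to 58.9 FPKM in SUM149 and from 22.9 to 45.3 FPKM in HCC1937, and IL6R from 0.648 to 3.14 FPKM in SUM149 and from 1.25 to 2.23 FPKM in HCC1937. LIFR differed by 1.34 in SUM149 and 1.19 in HCC1937. With an offset of 1, IL6R and LIFR came to 0.92 and 0.78 and missed the limit, which left 2 of the 4. The main effect of IL6 was 1.54 ± 0.19 (SE), and its difference was the larger in HCC1937.

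NF-kB and inflammatory genes were counted apart from the IL6 list. Of 32 tested NF-kB subunits, feedback genes and inflammatory cytokines, 10 fell in CSCs of both lines and 0 rose (median -0.40), while 1 or 2 rose under the other scalings. S100A8 and S100A9, which pair as calprotectin, were abundant in non-CSCs, and S100A9 fell from 829.5 to 31.1 FPKM in SUM149 and from 432 to 70.4 FPKM in HCC1937. S100A8 fell from 461 to 14.2 FPKM in SUM149 and from 156 to 26.7 FPKM in HCC1937. The transmembrane chemokine CXCL16 differed by -4.19 in SUM149 and -2.05 in HCC1937. Interferon stimulated genes gave 1 call among 25, near the 6.85% of all tested genes. It was ISG20, whose fractions overlapped in HCC1937 and which was lost after quantile normalization and with common-total scaling (main effect -1.14, list median -0.17). The medians of this list were 0.27 in SUM149 and -0.40 in HCC1937, and 9 of its genes differed in opposite directions. No gene of 12 tested for antigen presentation passed in both lines, while 1 rose after quantile normalization, and HLA-C, the most abundant, had -1.36 in SUM149 and -0.19 in HCC1937. Of 12 cytokine receptor chains and JAKs, 1 rose and 2 fell, or 1 under each other scaling, where IL22RA1 was lost, and the median of -0.03 turned to 0.05 with upper quartile scaling. IL7R rose from 0.249 to 0.736 FPKM in SUM149 and from 3.57 to 7.88 FPKM in HCC1937 (main effect 0.72 with an offset of 1, under the limit), and IL17RE fell from 1.59 to 0.138 FPKM in SUM149 and from 5.76 to 2.83 FPKM in HCC1937.

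Lipid enzymes included members of the study's candidate panel. Ceramide and sphingolipid enzymes had 4 of 22 tested genes lower and 0 higher in both lines, and the median of -0.11 turned to 0.03 after quantile normalization. FA2H, which hydroxylates the fatty acid of ceramides, had a main effect of -1.60 ± 0.18 (SE), and with an offset of 1 it came to -0.99, under the limit. SGPP2, a phosphatase of sphingosine 1-phosphate, fell from 4.76 to 0.357 FPKM in SUM149 and from 3.45 to 0.98 FPKM in HCC1937. ASAH1, the lysosomal ceramidase, and B4GALT5, a lactosylceramide synthase, had main effects of -1.73 and -1.50 with small differences in HCC1937 (-0.51 and -0.45). Of 9 eicosanoid genes 5 fell and 1 rose, with a median of -1.62. The cyclooxygenases PTGS1 and PTGS2 differed by -1.57 and -2.39 in SUM149 and by -2.16 and -1.26 in HCC1937, and PTGES, a prostaglandin E synthase, fell from 264 to 76.1 FPKM in SUM149 and from 124 to 59.6 FPKM in HCC1937. CYP4F3, which inactivates leukotriene B4, had a main effect of -3.03.

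Other members of the candidate panel gave less even results. KCNMA1, the pore of a calcium-activated potassium channel, rose from 0.418 to 3.74 FPKM in SUM149 and from 0.0927 to 0.336 FPKM in HCC1937 (main effect 2.04 ± 0.27, SE). TNNC1, a troponin C, fell from 0.663 to 0.17 FPKM in SUM149 and from 4.15 to 0.963 FPKM in HCC1937, but its fractions overlapped in SUM149 and it missed the limit with an offset of 1 (-0.94). ALOX15B, a lipoxygenase, and IL2RG, the common cytokine receptor gamma chain, had means under 1 FPKM over the 12 libraries (0.928 and 0.943 FPKM) and were not tested. These genes were picked by the study on the same libraries, so their direction is not independent evidence. Among epithelial channels and carriers 9 of 18 tested genes fell and 1 rose, with a median of -1.90. SCNN1A, a subunit of the epithelial sodium channel, fell from 158 to 6.44 FPKM in SUM149 and from 53.5 to 8.33 FPKM in HCC1937. The chloride channel ANO1 and the nucleoside carrier SLC28A3 had main effects of -2.94 and -2.26.

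Cholesterol and fatty acids are made by enzymes under sterol control. Of 22 tested genes 12 differed in opposite directions, with medians of -1.31 in SUM149 and 0.28 in HCC1937, and only SREBF1, which encodes a sterol-regulated transcription factor, fell in both (with -3.08 in SUM149 and -0.44 in HCC1937), near the 6.85% of all tested genes, while 1 other rose in both with common-total scaling. Of 24 glycolysis and hypoxia genes 2 rose and 0 fell, with a median of 0.22. The carbonic anhydrase CA12 had 40.6, 38.9 and 40.1 FPKM in the CSCs of SUM149 against 14.4, 13.8 and 14.7 FPKM. Its levels in HCC1937 were 6.15, 5.78 and 6.68 FPKM against 2.29, 2.31 and 1.91 FPKM. The fractions of CA12 were well apart at unlike levels, with differences of 1.47 in SUM149 and 1.47 in HCC1937 (adjusted p of the main effect 7.62e-08, limma). SLC2A3, a glucose carrier, rose from 19.6 to 70.8 FPKM in SUM149 and from 0.274 to 0.654 FPKM in HCC1937.

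Genes in use as stem cell markers split. Of 25 such genes 13 reached the minimum, 3 rose and 3 fell, and the median of -0.03 turned to 0.05, 0.03 and 0.05 with the other scalings. ITGB3 and GNG11 were among the higher genes. SOX9, a transcription factor of progenitor cells, fell from 129 to 30.5 FPKM in SUM149 and from 29.5 to 12.2 FPKM in HCC1937. ALDH1A3, an aldehyde dehydrogenase that makes retinoic acid, fell from 294 to 27.7 FPKM in SUM149 and from 369.9 to 261 FPKM in HCC1937. ALDH2 also fell, with a main effect of -2.30, but its fractions overlapped in HCC1937 and it was lost with common-total scaling. Of 22 aldehyde dehydrogenases and NRF2 targets 3 fell and 1 rose, with a median of -0.21.

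Lists of cell cycle and ribosomal protein genes stand for growth. By limma, 0 of 30 tested cell cycle and replication genes rose and 0 fell in both lines, against 2.98% and 6.85% of all tested genes, with medians of 0.12 in SUM149 and 0.04 in HCC1937. PCNA, the replication clamp and the most abundant of them, averaged 19.3 ± 2.22 and 31.7 ± 0.674 FPKM in CSCs and non-CSCs of SUM149 (SD, n = 3) and 164 ± 19.1 and 173 ± 15.9 FPKM in those of HCC1937 (SD, n = 3). Its fractions overlapped in HCC1937. Of 34 tested ribosomal protein genes 0 rose and 0 fell, the medians were 0.89 in SUM149 and -0.05 in HCC1937, and the latter turned to 0.01 with upper quartile scaling. RPL8, the most abundant, had differences of 0.60 in SUM149 and -0.10 in HCC1937. Of 22 p53 targets and BCL2 family genes 1 fell, near the 6.85% of all tested genes. The list median was 0.10, with 0.56 in SUM149 and -0.29 in HCC1937. BIK, which promotes cell death, was the gene that fell, from 32.7 to 5.89 FPKM in SUM149 and from 16.0 to 4.92 FPKM in HCC1937.

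Handling of cells for a sort can raise immediate early and heat shock genes. Of 22 such genes tested, 1 rose in CSCs of both lines, 3 fell and 5 differed in opposite directions. Over all tested genes these shares were 2.98%, 6.85% and 9.20%, and the list had a median of -0.31. KLF2, a Kruppel-like factor, rose from 22.5 to 75.5 FPKM in SUM149 and from 4.89 to 8.37 FPKM in HCC1937. BTG2, an antiproliferative gene induced by stress, fell from 19.1 to 9.57 FPKM in SUM149 and from 10.6 to 4.60 FPKM in HCC1937 and missed the limit with an offset of 1 (-0.99). HSPB1, a small heat shock protein, and NR4A1, an orphan nuclear receptor, had main effects of -1.15 and -1.45, and both were lost when each line was fitted alone. The part of handling in the other results was not tested.

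Markers of cells other than tumor cells were summed in each library. The 14 blood cell markers summed to 19.5, 19.6 and 18.7 FPKM in CSCs and 102, 97.0 and 103 FPKM in non-CSCs of SUM149. The same sums were 109, 107 and 93.9 FPKM and 71.7, 73.5 and 68.5 FPKM in HCC1937, in the opposite order. CD68, which many cells express in lysosomes, was the most abundant, and 4 of the markers were listed at 0 in every library, among them CD3E, while PTPRC did not exceed 0.0986 FPKM and LYZ 0.083 FPKM. CD14 reached 65.0 FPKM and differed in opposite directions, with -4.23 in SUM149 and 0.99 in HCC1937, and the part of blood cells in the results was not tested. The 9 endothelial markers summed to 0.601, 0.632 and 0.655 FPKM and 1.64, 1.89 and 1.86 FPKM in CSCs and non-CSCs of SUM149, and to 0.947, 0.79 and 0.839 FPKM and 1.005, 0.863 and 0.977 FPKM in HCC1937. Each stayed under 1 FPKM in every library, PECAM1 being the most abundant.

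Markers of fibroblasts were summed too. The 12 markers summed to 299.9, 305 and 299 FPKM in CSCs and 77.5, 78.6 and 81.7 FPKM in non-CSCs of SUM149. In HCC1937 the sums were 16.2, 15.8 and 15.4 FPKM and 6.95, 8.87 and 8.92 FPKM. Both lines thus had the larger sum in CSCs. Of 7 tested markers 4 rose and 0 fell, with medians of 2.26 in SUM149 and 0.36 in HCC1937. COL1A1, the most abundant, rose from 49.0 to 216 FPKM in SUM149 and from 6.76 to 11.04 FPKM in HCC1937, and COL3A1 from 1.92 to 9.56 FPKM in SUM149 and from 0.0347 to 0.0706 FPKM in HCC1937. PDGFRB and PDPN did not exceed 0.126 and 0.084 FPKM in HCC1937 and had differences of 0.50 and 0.36 there, and both lost their call when some single libraries were left out. With an offset of 1 PDGFRB, PDPN and COL3A1 all lost their calls, which left COL1A1 alone, and the fractions of PDPN overlapped in HCC1937. COL3A1 also lost its call with a trend in the limma prior, and its levels in HCC1937 lie under the offset of 0.1. Of the other defining markers DCN differed in opposite directions, with -3.10 in SUM149 and 0.28 in HCC1937, LUM did not exceed 0.478 FPKM, and COL1A2 did not exceed 1.03 FPKM. The part of fibroblasts in the matrix result was not tested.

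The plot of the gene lists sets these groups side by side. Several epithelial lists stand at its lower end, with -3.24 for secretory products, -2.75 for basal keratins and -2.65 for squamous genes as the median main effect, while epithelial laminin and hemidesmosomes stand at -0.03, against -0.04 over all tested genes. Matrix genes stand near its upper end, with 1.19. For lists with many low genes, such as secretory products, the median depends in part on the minimum, which a gene can pass through 1 fraction.

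**Figure D4:**
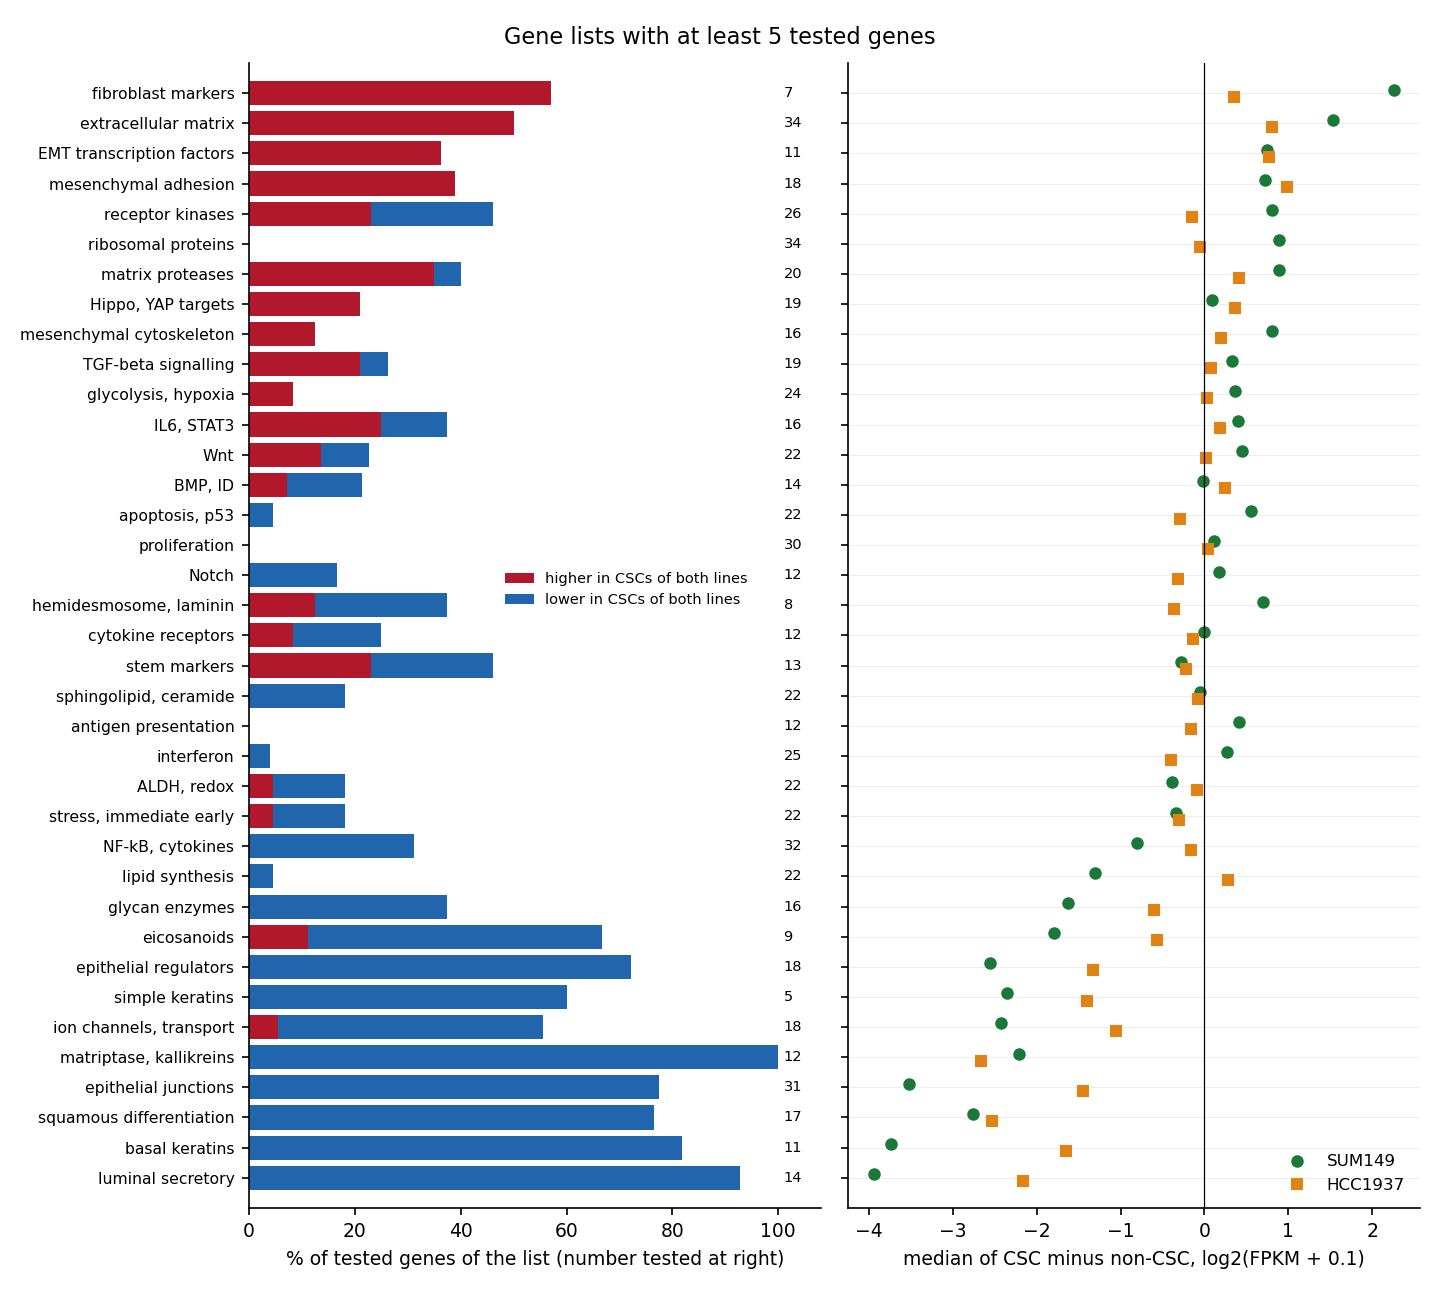
Share of each list's tested genes that changed the same way in both lines (bars, percent, with the number tested at the right) and the median difference between CSCs and non-CSCs in SUM149 (circles) and HCC1937 (squares) on log2(FPKM + 0.1). The 12 tested matriptase and kallikrein genes are lower and 17 of 34 matrix genes higher, while under another scaling the SUM149 medians of the BMP, cytokine receptor and sphingolipid lists and the HCC1937 medians of the ribosomal, antigen presentation, sphingolipid and ALDH lists turn sign.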

How the data were processed

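RNA sequencing of sorted CSCs and non-CSCs of SUM149 and HCC1937 was deposited by the authors as a table of FPKM per gene. The submitters' processing notes name alignment with Bowtie2 to GRCh38; its version, the quantification tool and the annotation are not given in the sources used here. Depth is unknown, since values at whole-read steps could not be found (2.47% of 3920 values at the commonest ratio), and 36 values were listed at 0 in 1 library while the group median was at least 10 FPKM.

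Values were taken as log2(FPKM + 0.1) for the 12295 genes averaging 1 FPKM or more, without further scaling. limma 3.58.1 in R 4.3.3 (lmFit and eBayes, default settings) fitted line plus fraction for the main effect, and 4 groups for the within-line differences and the line difference, with Benjamini-Hochberg adjustment over these genes and limits of 0.05 and 1. The gate genes were also tested by exact permutation within line. The code was tested on simulated data. Figures were drawn with matplotlib 3.10.9, and lists were matched by symbol, with older symbols where needed, with pandas 2.3.3 in Python 3.11.15.

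Named genes are CD24 and CD44, up to 14 genes in each direction with the largest smaller within-line difference among shared genes whose fractions did not overlap and that reached 1 FPKM in the higher fraction of each line, up to 4 shared members of each list by the same measure (or the most abundant tested member of a list without any), the study's candidate panel and the marker genes. Of the 169 named genes, 24 in the closing section were chosen after their values were seen. The members and lists were chosen with earlier results of these data known. Some results of the deposited table are not reported here. Alternatives covered the offset, the minimum, scaling, the model, a replicate block, the limits and each library left out. The unsorted libraries hold 1 group and were left out.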

Additional observations from a re-analysis of the deposited data

Results flagged for a closer look

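For 127 of 167 tested named genes the difference between CSCs and non-CSCs was not of equal size in the lines, since the line difference reached an adjusted p of 0.05 by limma, as it did for 67.6% of all tested genes. Of the 158 named genes that changed the same way in both lines, 120 were among them, 116 with the larger change in SUM149 and 4 in HCC1937. Values are the difference in SUM149 minus that in HCC1937 on log2(FPKM + 0.1), so a gene that fell further in SUM149 has a negative value. The cause was not tested.

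Among the gate genes and those that rose most, the values were -1.48 (CD24), 0.27 (CD44), 0.53 (VIM), 0.67 (CREB3L1), 0.90 (ZEB1), 0.62 (SEMA6D) and 1.27 (FOXF1). The genes that fell most in both lines had -1.11 (PRSS22), -1.87 (SPRR2A), -1.28 (CCDC64B), -1.31 (SLC6A14), -2.07 (ALDH3B2) and -2.11 (STEAP4). Junction and basement membrane genes had -1.02 (TJP3), -2.24 (DSG3), -2.23 (CDH1), -0.39 (LAMA3), -0.69 (LAMB3) and 1.29 (DST). For epithelial regulators it came to -1.50 (OVOL1), -1.77 (GRHL2) and -0.40 (GRHL1). Secretory products had -1.06 (FOLR1), -2.36 (WFDC2) and -1.84 (MUC4). Keratins had -2.46 (KRT19), -0.87 (KRT18), -0.95 (KRT8), -2.37 (KRT6B), -2.18 (KRT6A), -1.98 (KRT16), -2.65 (KRT6C) and -3.30 (KRT5). Of the marker genes, values were -2.21 (EPCAM), -5.22 (CD14) and -3.38 (DCN). Squamous and protease genes had -1.64 (PADI2), -2.47 (SPRR2E), -1.58 (PRSS8), -1.75 (ST14) and -2.32 (SPINT1).

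Glycan enzymes had -1.74 (GALNT3), -1.59 (B3GNT3) and -0.88 (ST6GAL1). Repressors of epithelial genes and matrix genes had 2.17 (FOXC2), 1.55 (SNAI2), 0.89 (DKK3) and 1.18 (SPARC). Mesenchymal adhesion genes and markers of other cells had 1.09 (ITGB3), 0.76 (CDH13), 0.88 (CDH2), 1.05 (NT5E), 1.43 (COL1A1), 2.60 (PDGFRB), 2.79 (PDPN), 1.92 (COL3A1) and -1.65 (CD68). In the TGF-beta and BMP lists it was 0.99 (TGFBR2), -1.54 (INHBA), -0.55 (TGFB1), 1.55 (TGFBR3), -2.18 (BMP4) and -3.16 (ID4). Wnt, Notch and Hippo genes had -0.97 (WNT10A), -2.57 (WNT6), -1.70 (NRARP), -1.30 (NOTCH3), 1.17 (DLC1), 0.89 (AXL) and 1.19 (CRIM1). Receptor kinase and IL6 genes had -1.57 (EPHA1), -1.43 (EPHB3), 0.58 (EREG), -1.06 (IL6), 0.66 (IL6ST) and 1.34 (IL6R). Inflammatory and immune genes had -2.11 (S100A9), -2.46 (S100A8), -2.15 (CXCL16), -1.28 (ISG20), -1.17 (HLA-C), -1.82 (IL17RE) and -0.50 (IL22RA1). Lipid enzymes had -1.69 (SGPP2), -0.97 (FA2H), -2.44 (ASAH1), -2.10 (B4GALT5), -2.60 (CYP4F3), 0.59 (PTGS1), -1.13 (PTGS2), -0.74 (PTGES) and -2.64 (SREBF1).

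Metabolic, stem cell marker and redox genes had 0.82 (SLC2A3), -0.81 (SOX9), -3.18 (ALDH2), -2.90 (ALDH1A3) and 1.56 (SLC7A11). Growth, stress and cell death genes had -0.64 (PCNA), 0.70 (RPL8), 0.98 (KLF2), -1.46 (HSPB1), -2.30 (NR4A1) and -0.79 (BIK). Channels, carriers and the candidate panel had -1.92 (SCNN1A), -1.64 (ANO1), 1.71 (KCNMA1) and 1.34 (TNC). Genes chosen after their values were seen had 0.66 (IGFBP4), 1.06 (IGFBP5), -3.84 (IGFBP3), -1.30 (IGFBP6), 0.49 (CYP26B1), -1.09 (CRABP2), -2.27 (RARRES1), -2.73 (RDH10) and -2.93 (STRA6). Further values of these were 0.87 (MIR205HG), 1.72 (MIR100HG), -1.07 (MIRLET7BHG), 0.82 (WDR35), 0.56 (DYNC2H1), 1.96 (EVC), 1.24 (KIF7), -3.23 (SERPINB2) and -2.27 (SERPINB3). Further values of these were -3.20 (SERPINB4) and -3.96 (SERPINB7).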

How the results depend on the processing

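No setting turned the direction of a shared gene. The 1776 main effect calls became 1145 with an offset of 1, 2670 without a minimum, 2728 and 798 with a minimum of 0.1 and 5 FPKM, 501 at an adjusted p of 0.0001 and 6419 without a limit on the difference. The 366 higher genes became 218, 193, 154 and 1138 with the offset of 1, the minimum of 5 FPKM, the p of 0.0001 and no limit, and 161 with a difference of 1 in each line. The 842 lower genes became 425, 285, 1609 and 458 with the minimum of 5 FPKM, the p of 0.0001, no limit and a difference of 1 in each line. The count of named genes with a line difference went from 127 to 81 at a p of 0.0001. CD44 kept its main effect of 0.25 but missed adjusted p limits of 0.0001 and 0.01. The cause of the changes with offset and minimum was not tested.

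Replicate numbers as a block gave 1264 main effect calls, 365 higher and 815 lower genes, and CD44 at 0.25 with an adjusted p of 0.07 by limma. With this block FOXC2, ISG20, NR4A1, PDPN and IGFBP3 no longer counted as shared, at unchanged main effects. Whether the numbers pair the libraries is not known. Over 6 same-numbered pairs the correlation of deviations from the group mean ran from -0.13 to 0.137, and 4 of 12 libraries correlated best with their own number. It was 0.137, 0.0244 and 0.137 in SUM149 and -0.13, -0.052 and -0.0308 in HCC1937. Deviations within a group of 3 libraries depend on each other, so these correlations cannot decide it.

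With 1 library left out, the main effect calls ranged from 1482 to 2007, the higher genes from 326 to 390, the lower genes from 784 to 909, the line differences of named genes from 122 to 128, CD24 from -3.51 to -3.32 and CD44 from 0.22 to 0.29. Some named genes near a limit then no longer counted as shared, with main effects given here in parentheses. This held for FOXC2 (2.13 to 2.20) without HCC1937 CSC 1 or HCC1937 non-CSC 1, and for TGFB1 (0.92 to 0.99) without HCC1937 CSC 1 or 2 or HCC1937 non-CSC 1 or 3. It held for ALDH2 (-2.47 to -2.39) without HCC1937 CSC 1 or 2 or HCC1937 non-CSC 1 or 3, and for MIR210HG (-0.98 to -0.96) without HCC1937 CSC 1, SUM149 CSC 3 or SUM149 non-CSC 3. The same was true for SNAI2 (1.18 to 1.22) without HCC1937 CSC 2 or HCC1937 non-CSC 1 or 3, and for ID4 (-2.43 to -2.42) without HCC1937 CSC 2 or HCC1937 non-CSC 1. It held for ISG20 (-1.20 to -1.14) without HCC1937 CSC 2 or 3 or HCC1937 non-CSC 2 or 3, and for HSPB1 (-1.22 to -1.19) without HCC1937 CSC 2 or 3 or HCC1937 non-CSC 2. The same was true for PDGFRB (1.87 to 1.94) without HCC1937 CSC 2 or HCC1937 non-CSC 1 or 2, and for PDPN (1.58 to 1.91) without HCC1937 CSC 2 or 3, HCC1937 non-CSC 2 or 3, SUM149 CSC 1, 2 or 3 or SUM149 non-CSC 2. It held for IGFBP3 (-2.40 to -2.38) without HCC1937 CSC 2 or 3 or HCC1937 non-CSC 1 or 2, and for MIR155HG (1.71 to 1.73) without HCC1937 CSC 2 or HCC1937 non-CSC 3. The same was true for SLC7A11 (0.96 to 1.13) without HCC1937 CSC 3, HCC1937 non-CSC 2, SUM149 CSC 1, 2 or 3 or SUM149 non-CSC 1, 2 or 3, and for IL22RA1 (-0.99 to -0.96) without SUM149 CSC 1 or 3 or SUM149 non-CSC 2 or 3. It held for TNNC1 (-1.78 to -1.57) without SUM149 CSC 1 or 3 or SUM149 non-CSC 1 or 2, and for IGFBP6 (-0.97 to -0.92) without SUM149 CSC 1, 2 or 3 or SUM149 non-CSC 1, 2 or 3. The same was true for MIRLET7BHG (-0.99 to -0.96) without SUM149 CSC 1 or SUM149 non-CSC 2 or 3, and for KIF7 (0.98) without SUM149 CSC 2.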

Other observations

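The groups here were chosen after their values were seen. Insulin-like growth factor (IGF) binding proteins, which hold IGFs in the space between cells, divided between the directions. Of 6 tested genes 3 rose and 2 fell in CSCs of both lines. IGFBP4 rose from 84.8 to 328 FPKM in SUM149 and from 19.3 to 47.2 FPKM in HCC1937. IGFBP5 and IGFBP7 differed by 2.92 and 2.08 in SUM149 and by 1.87 and 1.75 in HCC1937. IGFBP3 and IGFBP6, the lower genes, differed by -4.10 and -1.66 in SUM149 and by -0.27 and -0.36 in HCC1937, and both were lost under other scalings. Genes that bind or convert retinoids also divided, with 6 of 16 tested genes lower, 1 higher and a median main effect of -0.86. CRABP2, which carries retinoic acid to the nucleus, fell from 87.7 to 7.34 FPKM in SUM149 and from 378 to 68.1 FPKM in HCC1937. RARRES1, a gene induced by retinoids, fell from 281 to 8.43 FPKM in SUM149 and from 64.3 to 9.31 FPKM in HCC1937. STRA6, the retinol uptake receptor, and RDH10, which oxidizes retinol, had main effects of -2.17 and -2.09. CYP26B1, which degrades retinoic acid, rose from 8.29 to 23.2 FPKM in SUM149 and from 1.24 to 2.52 FPKM in HCC1937.

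Of 46 tested genes of ciliary transport and ciliopathies 5 rose and 0 fell, against 2.98% and 6.85% of all tested genes. The list median was 0.33. The higher genes were WDR35 (main effect 1.64) and DYNC2H1 (1.38) of the transport machinery, EVC (1.97), KIF7 (1.09) and TMEM67 (1.07). With an offset of 1 DYNC2H1, KIF7 and TMEM67 came to 0.76, 0.77 and 0.63 and missed the limit, which left 2 of the 5. Among 10 host transcripts of microRNAs 2 rose and 3 fell. MIR205HG, host of an epithelial microRNA, fell from 30.4 to 12.8 FPKM in SUM149 and from 231 to 53.3 FPKM in HCC1937, with the larger change in HCC1937. MIR100HG rose from 4.43 to 26.8 FPKM in SUM149 and from 6.66 to 12.1 FPKM in HCC1937, and MIR155HG had a main effect of 1.73, or 0.86 with an offset of 1. MIR210HG (-1.03) and MIRLET7BHG (-1.07) fell and lay close to the limit of 1, which both missed with upper quartile scaling and with an offset of 1.

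Some lower genes are neighbours in the genome (GRCh38.p14, RefSeq). In the epidermal differentiation complex, at chr1:151982915-153632039, 9 of 18 tested genes fell in both lines. In the kallikrein cluster, at chr19:50819146-51084210, 5 of 6 fell. In the cluster of clade B serpins, protease inhibitors of epithelial cells, at chr18:63476958-64019779, 5 of 8 tested genes fell (1 of the others is not a serpin), among them SERPINB2 (main effect -3.23), SERPINB7 (-3.00) and the near-identical SERPINB3 (-3.85) and SERPINB4 (-3.35). By chromosome, the highest shares of lower genes were 9.88% of the tested genes of chromosome 1, 9.94% of chromosome 18 and 8.95% of chromosome 19, against 6.85% of all. Chromosomes 17 and 11, which hold none of these clusters, came close with 8.76% and 8.03%.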
